A study of Mus musculus with 12 samples.

Results

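The 10 genes described here encode ligands and receptors of TGF-beta and BMP signalling: the ligands Tgfb1, Tgfb2, Tgfb3 and Bmp4, the type I receptors Tgfbr1 and Acvrl1, the type II receptors Tgfbr2 and Bmpr2, and the co-receptors Tgfbr3 and Eng. They were picked by symbol, with earlier results of these data known, from the 55487 genes in a count table of RNA-Seq from whole mouse lungs, and all 10 were counted and passed the filter on low counts. All 12 lungs came from miR-30a -/- mice on the C57BL/6J background, in which CRISPR/Cas9 had removed the gene of the microRNA miR-30a, and were taken on postnatal day (PND) 21. In each sex, 3 mice had been exposed to hyperoxia (95% FiO2) from PND 1 to PND 5, as a model of bronchopulmonary dysplasia, and 3 had been kept in room air. Pups of several litters had been mixed before they were allotted to an exposure. No wild-type lung was analysed here, so every group, room air included, lacks miR-30a.

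TGF-beta ligands are secreted in a latent form and, once released, bind the type II receptor TGFBR2, which then phosphorylates the type I receptor TGFBR1 and through it Smad2 and Smad3. BMP ligands signal through BMPR2 and type I receptors such as ACVRL1 (ALK1), mainly to Smad1, Smad5 and Smad9, and in endothelial cells endoglin (Eng) presents ligand to ACVRL1. In the newborn lung, TGF-beta signalling shapes septation and myofibroblasts, and BMPR2, ACVRL1 and endoglin are known from inherited diseases of lung vessels. Because RNA of the whole lung was measured, fewer cells of a type and less RNA per cell cannot be told apart.

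The deleted miRNA reads its targets with its seed, bases 2 to 8 of the mature strand, printed in capitals here beside 3 other mature mouse miRNAs with the same seed. These 3 are the ones found in the RefSeq table used, which is not a complete list of miRNAs. miR-30a-5p lies on mm10 (GRCm38.p6) at chr1:23272274-23272295, plus strand.
mmu-miR-30a-5p: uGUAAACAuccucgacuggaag
mmu-miR-30c-5p: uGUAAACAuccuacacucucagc
mmu-miR-30e-5p: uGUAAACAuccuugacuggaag
mmu-miR-384-5p: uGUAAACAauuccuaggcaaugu
The complement of the seed, TGTTTAC, was searched on the transcript strand in the longest annotated 3′ UTR of each gene. Of the 10 genes, only Tgfbr1 held it, once, at bases 2298 to 2304 of its 3′ UTR (chr4:47413075-47413081, mm10, plus strand). The site is shown in capitals because it was the one match to these 7 letters in the 10 UTRs searched. Other UTR isoforms, coding sequence and shorter matches were not searched.
Tgfbr1 3′ UTR: aaattgagtttacaTGTTTACagctaatt
The same letters stood in 13.8% of 20905 mouse 3′ UTRs, and in 44.4% of those as long as that of Tgfbr1 or longer, up to 8529 bases, so the match is a description of the sequence and not a site shown to be used. The other 9 genes had no match in these UTRs, among them Bmpr2, which has the longest 3′ UTR of the 10.

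Depth ran from 8763033 to 16741694 counts per lung, so that 3 counts were worth 0.191 to 0.327 CPM (counts scaled to a common normalized library size). Of the label checks, Xist had 8834 to 27296 counts in females and 148 to 210 in males, and the alveolar type 2 gene Sftpc had 18101 to 82270. Mir30a had 0 counts in 12 of 12 lungs, but such libraries need not hold a hairpin that short and no lung with the gene was analysed, so this does not check the deletion. Another measure differed between lungs along with the 10 genes. Olfactory and vomeronasal receptor genes, a family used mainly in the nose although some members are used in other tissues, took 0.453% to 1.04% of the counts. This receptor share was taken as background in the fits that correct for it, and where these reads come from was not tested. It was highest in hyperoxia male 2 and room air male 1 and lowest in room air female 5.

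Averaged over the 12 lungs, the 10 genes covered nearly an order of magnitude once counts were divided by exon length. Endoglin, Acvrl1 and Bmpr2, the receptors of the endothelial BMP pathway, had the highest levels, with 84.3 ± 21.0, 69.6 ± 19.7 and 60.7 ± 16.7 CPM per kilobase of exon (mean ± SD, n = 12). Their ranges over the lungs overlapped, from 48.1 to 116.1 for Eng, from 42.5 to 97.7 for Acvrl1 and from 38.2 to 87.7 for Bmpr2. Within each lung, however, Eng had the highest level of the 3. Acvrl1 lay above Bmpr2 in each lung except hyperoxia female 2, which had 64.0 and 69.1 CPM per kilobase. The type II TGF-beta receptor Tgfbr2 came next with 24.9 ± 5.62 CPM per kilobase, and its highest lung, at 34.7, lay below the lowest lung of all 3 endothelial receptors. The means of the remaining genes lay below it. The co-receptor Tgfbr3 had 17.3 ± 4.28, Tgfb1 17.1 ± 3.78, Bmp4 15.4 ± 2.92, Tgfb2 11.4 ± 2.05, Tgfbr1 10.4 ± 2.27 and Tgfb3 9.90 ± 1.52 CPM per kilobase. In this order, Bmp4 and Tgfb2 differed by more than either SD, though their ranges overlapped (11.4 to 20.2 and 8.29 to 14.8), and the other neighbours from Tgfbr3 down differed by less. The lowest lung for Tgfbr2, at 17.8, lay above the highest for Tgfb2, Tgfbr1 and Tgfb3 (14.8, 15.3 and 12.2). If the density of reads on the receptor genes is background, such reads could make up 0.623% to 3.27% of the counts of Eng, but 5.92% to 21.7% of those of Tgfb3. Eng, Acvrl1 and Bmpr2 thus had the smallest background shares.

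**Figure D1:**
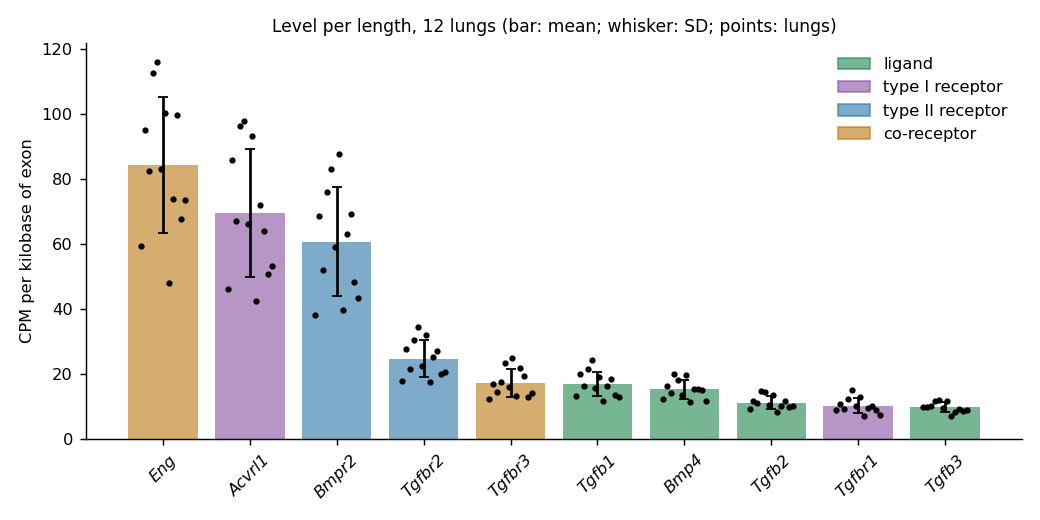
CPM per kilobase of exon (vertical axis) of the 10 genes, with the mean as a bar, the SD over 12 lungs as a whisker and each lung as a point, coloured by role. Eng, Acvrl1 and Bmpr2 had means of 84.3, 69.6 and 60.7, while the other 7 lay at 24.9 or below.

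Hyperoxia against room air was compared in each sex and pooled, with edgeR's quasi-likelihood test on all 45828 genes that passed the filter. Calls needed both a fold change over 1.5 and, after Benjamini-Hochberg adjustment over these genes, a p under 0.05. In females, 10 of 10 genes had a lower mean after hyperoxia, with log2 fold changes from -0.63 (Acvrl1) to -0.29 (Bmp4), and 0 of 10 were called. In males, 4 of 10 (Tgfb1, Tgfb2, Tgfb3 and Eng) lay below 0, with values from -0.12 (Tgfb3) to 0.45 (Tgfbr3), and again 0 of 10 were called. This male count hung on single lungs: 9 of 10 lay below 0 without hyperoxia male 1 (median -0.20) and 0 of 10 without hyperoxia male 2 (median 0.26). Pooled over both sexes, 9 of 10 lay below 0, from -0.29 (Acvrl1) to 0.08 (Tgfbr3), and 0 of 10 were called. Over all genes, 0.0415% were called pooled, 0.00218% in females and 0.00% in males. DESeq2 also called 0 of 10 in each contrast. At an unadjusted p under 0.05, edgeR listed 2 members in females (Tgfbr1 and Acvrl1), 0 in males and 0 pooled. The share of all genes that were lower at that level in females was 5.28%, and it was 19.7% among the 5678 genes counted at least as well as Tgfb3, the member with the lowest mean CPM (33.5).

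The same direction was common among other well-counted genes. Below 0 in females lay 39.0% of all genes and 93.4% of the 5678 well-counted genes, and the latter's median log2 fold change was -0.31, against -0.37 for the 10 genes and 0.11 for all genes tested. In males, 52.0% of all genes and 28.9% of the well-counted genes lay below 0, with medians of -0.01 and 0.06, against 0.05 for the 10 genes. Pooled, the shares were 44.0% and 86.3%, with medians of 0.03 and -0.11, against -0.20 for the 10 genes, which was -0.10 without hyperoxia male 2 and -0.30 without hyperoxia male 1.

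**Figure D2:**
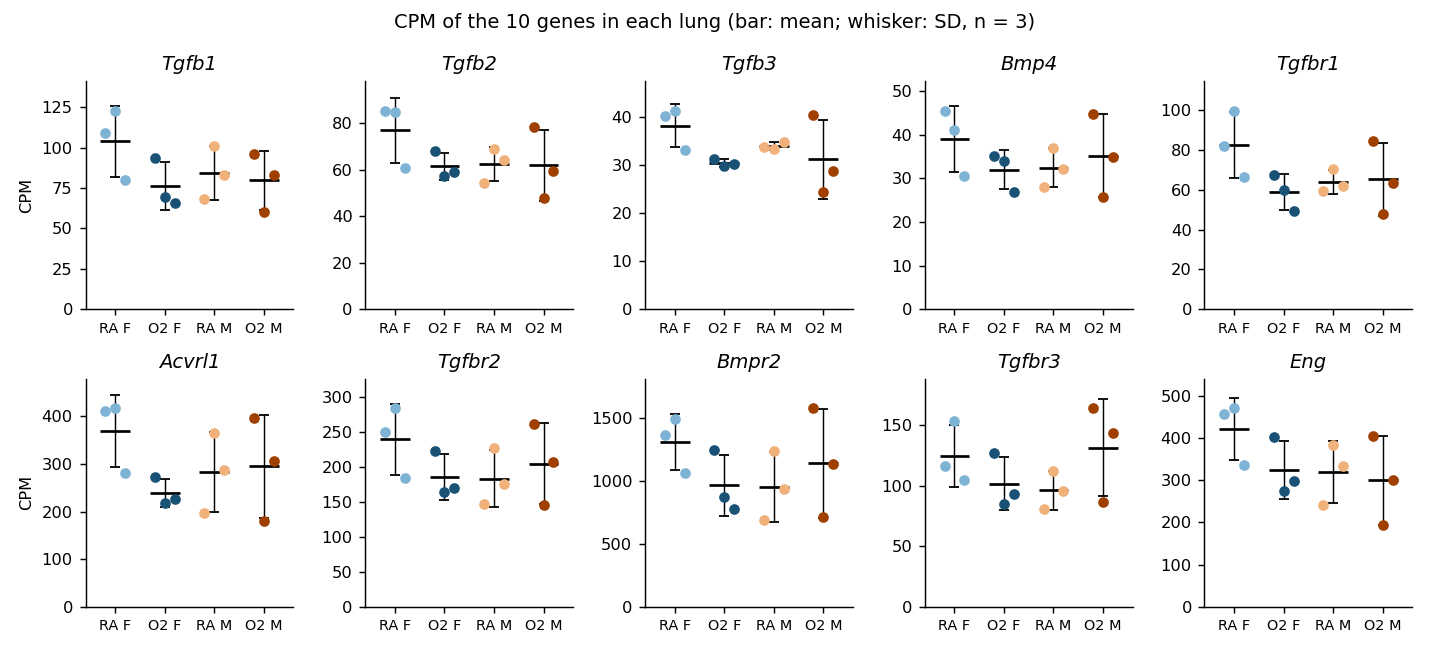
CPM (vertical axis, from 0) of the 10 genes in each of 12 lungs, in room air (RA) or hyperoxia (O2) and in females (F) or males (M), with the mean as a bar and the SD as a whisker (n = 3). The groups did not overlap in females for Tgfb3 and Acvrl1, and overlapped in males for 10 of 10 genes.

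Of the ligands, Tgfb1 (mm10 chr7:25687002-25705077, plus strand), the isoform bound up most with fibrosis and immune control, had 108.9, 122.8 and 79.7 CPM in room air female lungs 2, 5 and 6, and 93.5, 69.4 and 65.8 CPM in hyperoxia female lungs 2, 4 and 5. Only room air lung 6 lay inside the range of the hyperoxia lungs. The means were 103.8 ± 21.98 CPM in room air and 76.3 ± 15.0 CPM after hyperoxia, a log2 fold change of -0.45 ± 0.22 (SE; 95% interval -0.90 to 0.01) that did not pass the test (edgeR adjusted p = 0.400). In males, Tgfb1 had 68.1, 101.2 and 82.9 CPM in room air lungs 1, 4 and 5 and 96.3, 60.1 and 82.9 CPM in hyperoxia lungs 1, 2 and 3. Both male groups spanned nearly the same range, and the log2 fold change was -0.07 ± 0.22 (edgeR adjusted p = 1.00).

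Tgfb3 (chr12:86056745-86079041, minus strand), an isoform known for its part in palate and lung development, was the ligand whose female groups stood apart. It had 40.4, 41.3 and 33.1 CPM in room air females and 31.3, 29.8 and 30.2 CPM in hyperoxia females. The highest hyperoxia lung lay just below the lowest room air lung, and the hyperoxia lungs differed little among themselves (30.4 ± 0.784 CPM). The log2 fold change was -0.33 ± 0.16 (edgeR adjusted p = 0.400). Without an overlap and lower after hyperoxia in females were 6.42% of all genes and 21.2% of the well-counted ones, against 2 of 10 here. In room air males Tgfb3 had 33.7, 33.5 and 34.8 CPM, with an SD of 0.736 CPM, and hyperoxia males had 40.5, 24.5 and 28.8 CPM on both sides of it.

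Tgfb2 (chr1:186622792-186705989, minus strand), the third TGF-beta isoform, had 85.5, 84.9 and 60.8 CPM in room air females and 68.1, 57.3 and 59.0 CPM in hyperoxia females, with a log2 fold change of -0.33 ± 0.20 (edgeR adjusted p = 0.450). In males it had 54.5, 69.0 and 64.2 CPM in room air and 78.3, 48.0 and 59.4 CPM after hyperoxia. The hyperoxia males lay on both sides of the room air males, and the log2 fold change in males was -0.01 ± 0.20. Bmp4 (chr14:46383520-46390669, minus strand), a ligand of distal lung budding and of vessels, had 45.5, 41.0 and 30.6 CPM in room air females and 35.2, 34.0 and 26.9 CPM in hyperoxia females. Its male lungs had 28.1, 37.0 and 32.2 CPM in room air and 44.7, 25.7 and 35.0 CPM after hyperoxia. The log2 fold change was -0.29 ± 0.19 in females and 0.12 ± 0.19 in males, and its groups overlapped in both sexes.

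Of the type I receptors, Acvrl1 (chr15:101128522-101145336, plus strand) showed the largest difference of the 10 in females. It had 410.6, 416.7 and 281.9 CPM in room air lungs 2, 5 and 6 and 272.8, 217.2 and 226.8 CPM in hyperoxia lungs 2, 4 and 5. All 3 hyperoxia lungs lay below all 3 room air lungs, though room air lung 6 and hyperoxia lung 2 were close. The means were 369.7 ± 76.1 CPM in room air and 238.9 ± 29.7 CPM after hyperoxia, 0.646 times the room air level in the model, with a log2 fold change of -0.63 ± 0.29 (95% interval -1.23 to -0.03) and an adjusted p of 0.387 by edgeR. When 1, 2 or 3 factors of unwanted variation were removed with RUVr, a step the study's methods list without the number of factors, Acvrl1 was called in females each time. With 1, 2 and 3 factors 1902, 1925 and 2046 of all genes (4.15%, 4.20% and 4.46%) were called in females, against 1 without RUVr. Other fits went the other way: the female log2 fold change of Acvrl1 was -0.09 with the receptor share as covariate. It was -0.40 after subtraction of the density on the receptor genes, and neither was called. In males Acvrl1 had 197.3, 366.1 and 286.8 CPM in room air and 397.1, 181.1 and 306.9 CPM after hyperoxia, with the lowest and the highest male lung both in the hyperoxia group.

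Tgfbr1 (ALK5), chr4:47353222-47414931, plus strand, is the type I receptor for TGF-beta and the gene with the seed match printed above. It had 81.9, 99.7 and 66.4 CPM in room air females and 67.6, 59.9 and 49.3 CPM in hyperoxia females. Only hyperoxia lung 2 and room air lung 6 crossed. The log2 fold change was -0.49 ± 0.21 (95% interval -0.91 to -0.06), and edgeR's adjusted p was 0.368. In males it had 59.4, 70.5 and 61.8 CPM in room air and 84.5, 47.9 and 63.6 CPM after hyperoxia, on both sides of the room air lungs, with a log2 fold change of 0.03 ± 0.21.

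Of the type II receptors, Bmpr2 (chr1:59763400-59879014, plus strand), whose inherited loss is the best known cause of familial pulmonary arterial hypertension, had 1369, 1495 and 1063 CPM in room air females and 1243, 872 and 782 CPM in hyperoxia females. In males it had 687, 1236 and 935 CPM in room air and 1577, 713 and 1136 CPM after hyperoxia. The groups overlapped in both sexes, and the spread among the hyperoxia males was the widest, at 1142 ± 432 CPM. The log2 fold changes were -0.44 ± 0.35 in females and 0.26 ± 0.35 in males (edgeR adjusted p = 0.544 and 1.00). Tgfbr2 (chr9:116084293-116175360, minus strand) had 249.8, 284.0 and 185.1 CPM in room air females and 223.4, 164.8 and 169.6 CPM in hyperoxia females. In males it had 147.0, 227.5 and 176.0 CPM in room air and 261.7, 145.4 and 207.7 CPM after hyperoxia. The log2 fold change was -0.37 ± 0.26 in females and 0.16 ± 0.26 in males, and its groups overlapped in both sexes.

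Of the co-receptors, Tgfbr3 or betaglycan (chr5:107106570-107289629, minus strand), which binds TGF-beta2 and inhibins, had a higher mean after hyperoxia in males and a lower one in females. It had 80.7, 112.3 and 95.6 CPM in room air males 1, 4 and 5 and 163.9, 86.8 and 143.6 CPM in hyperoxia males 1, 2 and 3. Hyperoxia lungs 1 and 3 lay above all room air males, and lung 2 lay among them. The log2 fold change in males was 0.45 ± 0.24 (95% interval -0.04 to 0.94), the largest of the 10 in that sex, and was not called (edgeR adjusted p = 1.00). It was 0.27 without hyperoxia male 1 and 0.69 without hyperoxia male 2. In females it had 116.0, 153.7 and 104.7 CPM in room air and 126.8, 85.3 and 93.0 CPM after hyperoxia, with a log2 fold change of -0.30 ± 0.24, which was -0.12 without room air female 5 and -0.49 without hyperoxia female 2.

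Endoglin (chr2:32646595-32682669, plus strand), a marker of endothelial cells, had 456.1, 469.9 and 336.2 CPM in room air females and 403.4, 273.7 and 297.8 CPM in hyperoxia females. Its male lungs had 240.3, 384.2 and 334.4 CPM in room air and 405.4, 194.8 and 299.6 CPM after hyperoxia. The groups overlapped in both sexes, and the log2 fold changes were -0.37 ± 0.29 and -0.09 ± 0.29.

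The interaction, the female difference minus the male one, was below 0 for 10 of 10 genes and called for 0 of 10. It ran from -0.21 (Tgfb3) to -0.75 (Tgfbr3), with edgeR adjusted p from 0.578 to 0.779, and only Tgfbr3 had an unadjusted p under 0.05 (0.0368), as had 2.40% of all genes and 6.31% of the well-counted ones in that direction. Of all genes 0.00% were called for the interaction, and 41.4% of all genes and 93.6% of the well-counted genes lay below 0, the latter with a median of -0.38, against -0.47 for the 10 genes. Without hyperoxia male 1, 9 of 10 lay below 0 and the members' median was -0.26, and without hyperoxia male 2 it was -0.66. With 1, 2 or 3 RUVr factors, Tgfbr3, Bmpr2 and Acvrl1 were called for the interaction, as were 2101, 2184 and 2385 of all genes (4.58%, 4.77% and 5.20%). With the receptor share as covariate, the interaction lay below 0 for 2 of 10 genes, with a median of 0.08, and after subtraction of the density on the receptor genes for 8 of 10, with a median of -0.20.

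**Figure D3:**
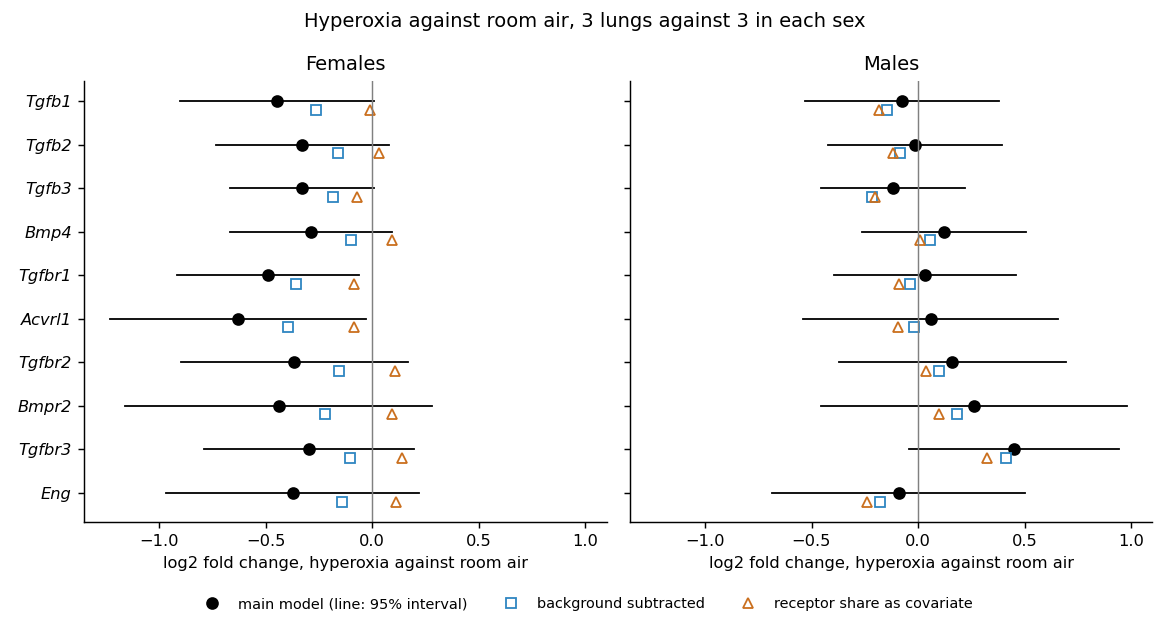
Log2 fold change, hyperoxia against room air (horizontal axis), of the 10 genes in females (left) and males (right), as estimated in the model (circles, with 95% intervals), after subtraction of the background density (squares) and with receptor share added as covariate (triangles). In females the circles run from -0.63 to -0.29, the squares from -0.40 to -0.10 and the triangles from -0.09 to 0.14.

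The levels of the 10 genes varied together from lung to lung, in the reverse order of the receptor share. In 9 of 10 genes, Tgfb3 being the exception, the 4 lungs with the highest receptor share all lay below the 4 lungs with the lowest. How many of all genes, or of the well-counted ones, were ordered in this way was not examined, so this is not a trait shown to be particular to the 10. Hyperoxia male 2, with the highest share (1.04%), had the lowest level of 8 of 10 genes, and room air male 1 (0.996%) had the lowest of the other 2. Room air female 5, with the lowest share (0.453%), had the highest level of 6 of 10. The share was 0.615% ± 0.187 in room air females and 0.845% ± 0.09997 in hyperoxia females (n = 3 each, exact permutation test, two-sided, p = 0.2, where 0.1 is the smallest that 3 against 3 can give), and 0.852% ± 0.144 and 0.803% ± 0.237 in males (exact permutation p = 0.8).

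With the log2 receptor share as a covariate, the female log2 fold changes shrank to between -0.09 and 0.14, and 6 of 10 turned positive. Subtracting the background density per kilobase left all 10 below 0 in females, between -0.40 (Acvrl1) and -0.10 (Bmp4). With the covariate, the male value of Tgfbr3 was 0.32 ± 0.10 and its pooled value 0.23 ± 0.07, and neither was called (edgeR adjusted p = 0.349 and 0.191). The part of the receptor share in the differences between groups was not tested beyond these fits.

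**Figure D4:**
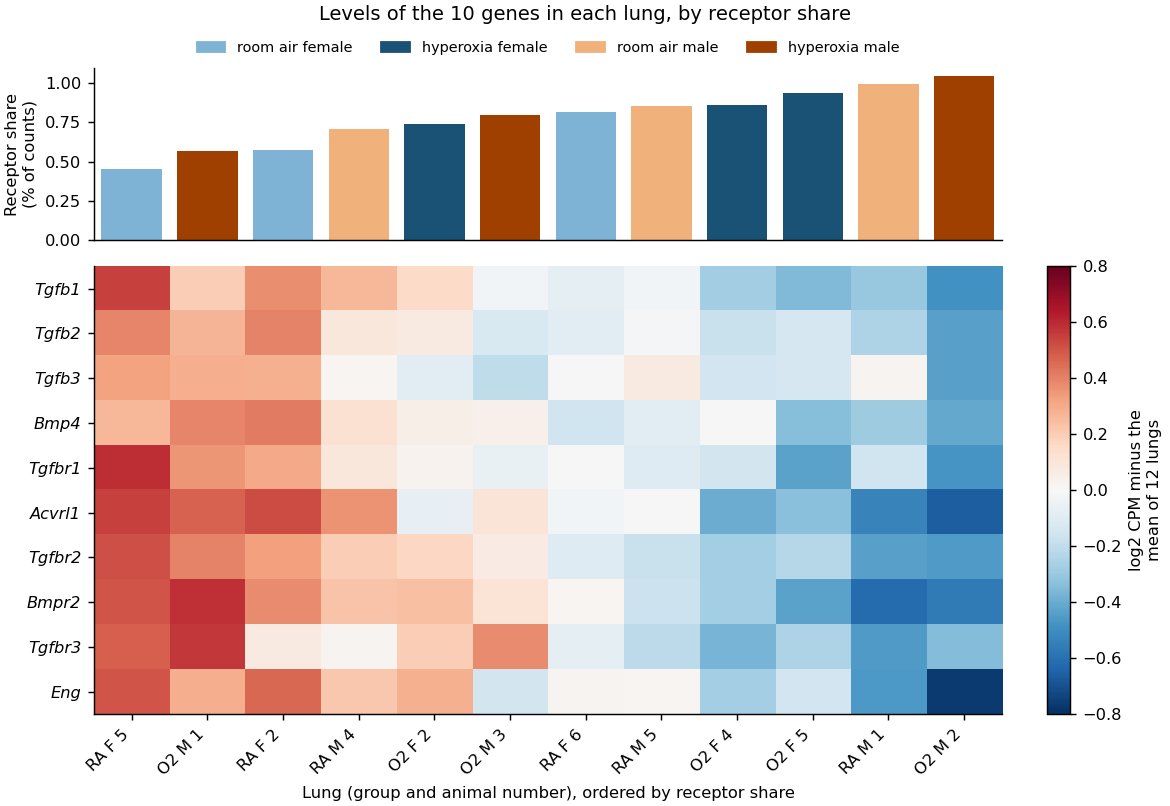
The 12 lungs ordered by receptor share (bars above, percent of counts, coloured by group), with each gene's log2 CPM minus its mean over the 12 lungs below (red higher, blue lower). From room air female 5 (0.453%) on the left to hyperoxia male 2 (1.04%) on the right, the 10 genes pass from above their means to below them.

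Endothelial markers had lower means after hyperoxia in females, within the spread between lungs. Their summed level, over 10 genes such as Pecam1, Cdh5 and Kdr, was 2678 ± 567 CPM in room air females and 2006 ± 314 CPM in hyperoxia females, with ranges of 2027 to 3063 and 1771 to 2362 CPM (exact permutation p = 0.2). In males it was 2122 ± 480 and 2181 ± 678 CPM (exact permutation p = 0.9). In females 10 of 10 endothelial markers lay below 0, with a median of -0.40, and in males 3 of 10, with a median of 0.06. None of the 10 was called in either sex, and none was at 0. Markers of other lung cells were also compared, and none of their sums passed a test in females. The lung epithelial markers summed to 15128 ± 5098 CPM in room air females (10591 to 20645) and 9920 ± 470 CPM in hyperoxia females (9540 to 10445), without overlap (exact permutation p = 0.1, the smallest this design can give), and 6 of 6 lay below 0, with a median of -0.54. In males their sums were 10703 ± 2429 and 10504 ± 3140 CPM, and 2 of 6 lay below 0. In females, 5 of 5 fibroblast, 5 of 6 smooth muscle and 4 of 5 alveolar macrophage markers lay below 0, with medians of -0.50, -0.19 and -0.02 (exact permutation p of the sums 0.2, 0.4 and 0.2). Thymus and T cell markers, among them Rag1 and Ptcra, lay the other way in females, with 0 of 6 below 0 and a median of 0.28. Their sums were 65.4 ± 4.63 CPM in room air (60.1 to 68.3) and 81.2 ± 8.36 CPM after hyperoxia (74.2 to 90.4), again without overlap (exact permutation p = 0.1). These genes had few counts: in females Ptcra had 39 to 72, Rag1 98 to 186 and Cd4, the highest, 217 to 293. The mean receptor share was also higher in hyperoxia females (0.845% against 0.615% in room air females). The part of background in these higher sums was not tested. Of the 4 lists before it and the thymus and T cell list, 0 markers were called in either sex. The part of endothelial or other cell numbers in the lower values of the 10 genes in females was not tested.

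Ratios between partners, in which a change shared by both cancels, were examined after the values had been seen, and in 3 of 8 comparisons (4 ratios in each sex) the groups did not overlap. In females the log2 ratio of Acvrl1 to Eng lay between -0.25 and -0.15 in room air and between -0.56 and -0.33 after hyperoxia, without overlap. In males it lay between -0.29 and -0.07 in room air and between -0.11 and 0.03 after hyperoxia, with overlap. The log2 ratio of Tgfbr3 to Tgfbr2 was higher in hyperoxia males (-0.75 to -0.53) than in room air males (-1.02 to -0.87), and that of Bmpr2 to Acvrl1 was also higher (1.89 to 1.99 against 1.71 to 1.80), each without overlap. In females the groups overlapped for both: Tgfbr3 to Tgfbr2 lay between -1.11 and -0.82 in room air and between -0.95 and -0.82 after hyperoxia, and Bmpr2 to Acvrl1 between 1.74 and 1.92 and between 1.79 and 2.19. Tgfbr1 to Tgfbr2 overlapped in both sexes, with room air lungs between -1.61 and -1.48 in females and between -1.69 and -1.31 in males, and hyperoxia lungs between -1.78 and -1.46 and between -1.71 and -1.60. These are descriptions of 3 lungs against 3, and how often ratios of other gene pairs do not overlap was not examined.

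Females against males, a contrast added after the values had been seen, gave log2 differences of 0.17 (Tgfb3) to 0.46 (Bmpr2) in room air, with females higher in 10 of 10 genes. In hyperoxia 9 of 10 lay below 0, from -0.37 (Tgfbr3) to 0.12 (Eng). None was called in either exposure (edgeR adjusted p from 0.434 to 0.609 in room air and 1.00 in hyperoxia), and of all genes 0.386% and 0.696% were called. Among the well-counted genes 7.50% lay below 0 in room air and 84.9% in hyperoxia. These differences share their lungs with the contrasts above.

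The other genes of the pathway, 71 in 7 lists, were all tested, and 0 were called for hyperoxia against room air, pooled, in females or in males. Between the sexes 1 of the 71 was called, Chrdl1 in hyperoxia, with 18.8 ± 0.441 CPM in females and 10.9 ± 1.57 CPM in males (n = 3 each, log2 difference 0.79 ± 0.15, edgeR adjusted p = 0.00685), where 0.696% of all genes were called. The call was lost without hyperoxia male 3 (0.70, adjusted p = 0.0979) and after subtraction of the density on the receptor genes (2.01, adjusted p = 0.761). It was also lost with a replicate block (0.92, edgeR adjusted p = 0.0709). Their median log2 fold change was -0.28 in females and 0.05 in males, and 49 of 71 lay below 0 in females. At an unadjusted p under 0.05 edgeR listed 11 genes in females, all lower, against 5.28% of all genes and 19.7% of the well-counted genes that were lower at that level. In males it listed 1, the BMP antagonist Chrdl1, with a lower mean, against 1.80% of all genes. Pooled it listed 7 that were lower and 1 that was higher, against 2.52% and 2.67% of all genes. The one that was higher was Fst, follistatin, an antagonist that binds activins, named here after its values were seen (12.7 and 15.1 CPM, 0.26 ± 0.12, edgeR adjusted p = 0.927). The density on the receptor genes amounted to as much as 100.7% of the Chrdl1 level and 58.7% of the Fst level in a lung, so both lay near it. Of these 71 genes, 37 were as well counted as the members.

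Among the 13 other ligands, 5 (Bmp2, Bmp3, Bmp5, Bmp6 and Inhbb) lay below 0 in females, and the smallest pooled p was that of Inha, the inhibin alpha subunit (8.54 and 9.33 CPM, log2 fold change 0.13 ± 0.12). Of the 7 other receptors, 4 (Bmpr1a, Acvr1, Acvr1b and Acvr2a) lay below 0 in females. Only 2 of the 13 other ligands and 4 of the 7 other receptors were as well counted as the members. Bmpr1a, the type I receptor for BMP2 and BMP4, had 99.0 CPM in room air females and 71.7 CPM in hyperoxia females (-0.47 ± 0.22, edgeR adjusted p = 0.390).

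Of the 8 Smads, which carry the signal to the nucleus or block it, 7 lay below 0 in females and 1, Smad3, in males, with medians of -0.32 and 0.09. Smad9, a BMP Smad, was the Smad above 0 in females, and its pooled value was 0.16 ± 0.11. Of the 8 nuclear and ubiquitin regulators, 8 lay below 0 in females, with a median of -0.38. Zfyve9 (SARA), which brings Smad2 and Smad3 to the receptor, had 61.9 and 53.3 CPM pooled (-0.21 ± 0.14). Skil (SnoN), a Smad co-repressor named here after its values were seen, had 128.8 and 83.6 CPM in females without overlap (-0.62 ± 0.23, edgeR adjusted p = 0.354), the lowest of the 71.

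Of the 10 genes of latency and activation, 9 lay below 0 in females, with a median of -0.31. Nrros, which holds latent TGF-beta1 on macrophages, had 44.8 and 32.5 CPM in females without overlap (-0.46 ± 0.18, edgeR adjusted p = 0.357), and its pooled log2 fold change was -0.34 ± 0.13. Of the 13 antagonists, 7 lay below 0 in females.

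Of the 12 targets, 9 lay below 0 in females, with a median of -0.38. Col1a1, the collagen I chain that TGF-beta induces, had 700.0 CPM in room air and 485.1 CPM after hyperoxia pooled (-0.53 ± 0.21, edgeR adjusted p = 0.927), and was lower on average in both sexes (-0.57 ± 0.30 in females and -0.49 ± 0.30 in males). The BMP target Id1, named after its values were seen, had 24.2 CPM in room air females and 17.2 CPM in hyperoxia females (-0.49 ± 0.23, edgeR adjusted p = 0.393), and in males its log2 fold change was -0.09 ± 0.24. Col1a1 and Acta2 also stand in the marker lists of fibroblasts and smooth muscle. The summed fibroblast level was 1744 ± 385 CPM in room air and 1327 ± 262 CPM after hyperoxia over both sexes (n = 6 each, exact permutation p = 0.075).

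**Figure D5:**
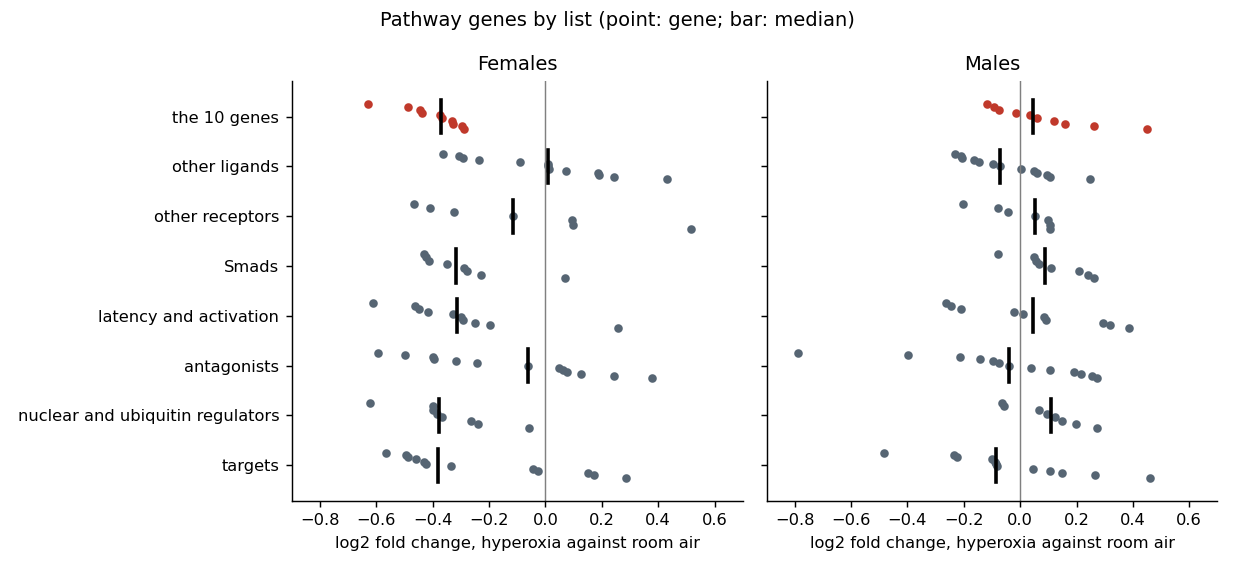
Log2 fold change, hyperoxia against room air (horizontal axis), in females (left) and males (right) for the 10 genes (red) and 7 lists of other pathway genes (grey), with 1 point per gene and the median as a bar. In females the median of the 10 genes was -0.37 and that of the Smads -0.32, and in males they were 0.05 and 0.09.

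Among the other cell markers, red cell genes differed between exposures. Their summed level was 6097 ± 1075 CPM in room air and 2517 ± 1093 CPM after hyperoxia (n = 6 each, exact permutation p = 0.005, the smallest this design can give), and 2 of 4 (Alas2 and Hbb-bt) were called pooled. Cardiac muscle genes, which lung samples carry from the pulmonary veins, summed to 193.1 ± 54.6 and 114.2 ± 11.03 CPM (exact permutation p = 0.02). The part of either list in the values of the 10 genes was not tested. Skeletal muscle genes reached 1782 CPM in room air male 1 and at most 146.0 CPM in the other 11 lungs. Without that lung, 6 of the 10 genes lay below 0 in males, with a median log2 fold change of -0.06, and 0 of 10 were called. The part of this tissue in the values of the 10 genes was not tested either.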

How the data were processed

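RNA-Seq of 12 miR-30a -/- lungs was analysed, 3 in each group of sex and exposure. The submitters' notes name Trim Galore, STAR and featureCounts on mm10, and the authors deposited the resulting raw counts per gene with no normalization applied. The labels and the methods name different library kits, and the strand setting is not given in the sources used here.

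Counts were analysed with R 4.3.3 and edgeR 4.0.16 (robust quasi-likelihood, upper-quartile normalization, filterByExpr, 4 group means, 45828 genes, biological coefficient of variation 0.177). The pooled contrast was the mean of the female and male differences. DESeq2 1.42.0 was an alternative, and the fits were tested on simulated data. The study's methods also list ComBat-seq, without saying which samples entered it, and this step was not repeated. CPM used the normalized library sizes, and intervals have a level of 95%. Depth was 8763033 to 16741694 counts per lung, which sets counting error only. Exon lengths, positions and 3′ UTRs came from GENCODE mouse release M21, which matched 55227 of 55487 genes. miRNA sequences came from RefSeq (GRCm38.p6). Background was taken as the density of reads on 2003 olfactory and vomeronasal receptor genes. Numbers in the sample titles were taken as animal numbers, and which lungs share a litter is not given in the sources used here. Single values were compared by exact permutation tests, two-sided.

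The members and the lists were chosen with earlier results of these data known. Named were the 10 members and, from each list, the gene with the smallest pooled p. Some results are not reported here. Other genes are marked as named after their values were seen. Figures were made with Python 3.11.15 and matplotlib 3.10.9. The alternatives tried were another normalization, test, filter and model, RUVr, background corrections, a replicate block and leaving out lungs.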

Additional observations from a re-analysis of the deposited data

How the results depend on the processing

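In 724 of 780 alternative pooled, female and male values of the 10 genes the direction and the side of the threshold were those of the reported fit. The interaction is not among these values. Another limit is that 30 of them only drop the fold change rule from the reported fit, so their direction could not change. RUVr changed the calls: with 1, 2 or 3 factors, 1 of the 10 genes was called in females (Acvrl1), 3 for the interaction (Tgfbr3, Bmpr2 and Acvrl1) and 1 of the other pathway genes in females (Skil). With 1 factor and adjusted p alone, an alternative chosen after seeing the data, 5 of the 10 were past the threshold pooled, 10 in females, 1 in males and 6 for the interaction, and 14, 31 and 1 of the other 71 pooled, in females and in males. Of all genes, 2069 (4.51%) then passed pooled, 7670 (16.7%) in females, 67 (0.146%) in males and 5359 (11.7%) for the interaction. The shares among the well-counted genes, the closer comparison for the 10, were not counted in the RUVr fits. Genes called in females over all genes numbered 1 in the reported fit, 44 with DESeq2, 80 when only the 6 female libraries were fitted, 206 without room air female 6 and 1902 with 1 RUVr factor. They numbered 22 with the receptor share as covariate, 8 without a filter on low counts and 0 with TMM normalization, background subtraction or a replicate block, or without room air male 5, room air female 2, hyperoxia male 3 or hyperoxia female 5.

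With the receptor share as covariate, the pooled log2 fold changes of Tgfbr2, Bmp4 and Bmpr2 turned to 0.071, 0.051 and 0.096, the female ones of Tgfb2, Tgfbr2, Tgfbr3, Bmp4, Bmpr2 and Eng to 0.031, 0.11, 0.14, 0.092, 0.093 and 0.11, and the male ones of Tgfbr1 and Acvrl1 to -0.090 and -0.093. After background subtraction the male values of Tgfbr1 and Acvrl1 were -0.0375 and -0.0203, and with DESeq2 that of Tgfb2 was 0.012. Without room air male 1 and hyperoxia male 2 together, chosen after seeing the data, the male values of Tgfb2 and Tgfb3 were 0.06 and 0.03. The cause was not tested. The median over all genes for the interaction was 0.12 in the reported fit and 0.01 with DESeq2.

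Leaving out 1 lung at a time changed no call of the 10 genes, and in females all 10 stayed below 0 each time. Their female median, -0.37 in the reported fit, was -0.28 without room air female 5 and -0.54 without hyperoxia female 2, the ends of its range. Gene by gene, the female ranges were -0.62 to -0.31 for Tgfb1, -0.48 to -0.25 for Tgfb2, -0.43 to -0.27 for Tgfb3, -0.63 to -0.33 for Tgfbr1, -0.53 to -0.23 for Tgfbr2, -0.49 to -0.12 for Tgfbr3, -0.44 to -0.16 for Bmp4, -0.67 to -0.31 for Bmpr2, -0.80 to -0.54 for Acvrl1 and -0.56 to -0.27 for Eng. The male values depended on hyperoxia male 1 and 2, whose removal gave the lowest and the highest value: -0.23 and 0.10 for Tgfb1, -0.21 and 0.15 for Tgfb2, -0.34 and 0.036 for Tgfb3, -0.19 and 0.22 for Tgfbr1, -0.05 and 0.36 for Tgfbr2, 0.27 and 0.69 for Tgfbr3, -0.085 and 0.31 for Bmp4, -0.038 and 0.52 for Bmpr2, -0.21 and 0.32 for Acvrl1, and -0.37 and 0.15 for Eng. Pooled ranges that crossed 0 were -0.018 to 0.19 for Tgfbr3, -0.19 to 0.0079 for Bmp4 and -0.24 to 0.038 for Bmpr2.

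The replicate numbers did not pair the lungs: deviations of same-numbered lungs correlated at 0.17 and -0.32 in females and -0.49 in males, over 23653 genes. With a replicate block 0 of the 10 genes and 0 of the other pathway genes were called pooled, in females or in males, as without it. The difference of Chrdl1 between the sexes in hyperoxia was not called with the block (0.92, edgeR adjusted p = 0.0709).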
